A study of Mus musculus with 15 samples.

Results

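The CDK inhibitor genes described here are the 8 genes whose symbols are Cdkn1a, Cdkn1b, Cdkn1c, Cdkn2a, Cdkn2b, Cdkn2c, Cdkn2d and Cdkn3, chosen by symbol from the 21669 genes with a symbol in an RNA-seq table of mouse B cells. The study asked how blocking EZH2, the enzyme that places the repressive mark H3K27me3, changes the differentiation of B cells into plasma cells. Naive B cells (nB) were CD43- splenic B cells of wild-type female C57BL/6J mice, which the methods give as 6 to 9 weeks old, with no stimulation and no drug in their labels. The other cells of this kind were cultured for 3 days with LPS, IL2 and IL5 and with either the EZH2 inhibitor GSK343 (2 µM) or its solvent DMSO, then sorted as activated B cells (actB, B220+ GL7+ CD138-) or plasmablasts (Pb, CD138+). This gave 5 groups of 3 libraries: nB, actB with DMSO, actB with GSK343, Pb with DMSO and Pb with GSK343. The labels of the Pb GSK343 libraries name IL6 in place of IL5, so in Pb the drug and that cytokine cannot be told apart if the labels are right. Culture, stimulation and sorting likewise all separate nB from the cultured cells. The libraries of a cell type are described as biological replicates, while no source used here says whether they came from separate animals or separate cultures, so p-values measure the spread between these libraries.

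The libraries held between 19421830 and 26307413 reads. nB libraries 1 and 2 differed by less than the sampling noise (chi-square per degree of freedom 0.00958, against 3.58 or more for every other pair) and were counted as 1 library, so n = 2 for nB and n = 3 for each other group. The number 2 libraries stood apart from numbers 1 and 3 in actB (chi-square per degree of freedom 16.7 to 29.7, against 3.80 and 6.07 for the pairs of 1 and 3) and in Pb (7.64 to 11.4, against 3.58 and 3.68). The marker sums followed the labels of the sorted cells. The summed level of 5 plasma cell markers was 214 to 231 RPKM in nB, 485 to 522 in actB with DMSO and 3065 to 3215 in Pb with DMSO. That of 6 B cell markers was 1741 to 1805, 985 to 1156 and 201 to 230 RPKM. Among the plasma cell markers, Sdc1 (5.17 RPKM in nB, 0.67 in actB with DMSO) and Irf4 (119.7 and 109.5) did not rise from nB to actB. nB also carried transcripts of 8 myeloid markers (195 to 239 RPKM in sum) and of 8 T and NK cell markers (44.4 to 46.3), which were at most 14.1 and 6.09 RPKM in every cultured library. In such bulk samples, fewer cells of a type and less RNA per cell cannot be told apart.

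Cyclin-dependent kinases (CDKs) drive the cell through its division cycle, and their inhibitors hold them back. The Cip/Kip proteins p21 (Cdkn1a), p27 (Cdkn1b) and p57 (Cdkn1c) bind complexes of CDKs with their cyclins, whereas the INK4 proteins p16 (Cdkn2a), p15 (Cdkn2b), p18 (Cdkn2c) and p19 (Cdkn2d) bind the kinases CDK4 and CDK6 and keep D cyclins from activating them. Cdkn2a also encodes Arf, which stabilizes p53 through Mdm2, and Cdkn3 encodes a phosphatase that acts on CDKs and is itself made mainly in dividing cells. The Cdkn2a and Cdkn2b locus is a classic target of Polycomb silencing. In B cells, p27 is known as a brake of quiescent cells, and p18 is known to be needed for the formation of functional plasma cells.

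In mm9, with GENCODE vM1 gene models, Cdkn1a lies at chr17:29227924-29237667 and Cdkn1b at chr6:134870419-134875531, both on the plus strand. Cdkn2a (chr4:88920377-88940557), Cdkn2b (chr4:88952198-88956941) and Cdkn2c (chr4:109333481-109339794) lie on the minus strand of chromosome 4, the first 2 next to each other. Cdkn1c (chr7:150644255-150646955) and Cdkn2d (chr9:21092907-21095653) are also on the minus strand, and Cdkn3 (chr14:47380216-47391200) is on the plus strand. No other annotated gene overlapped any of the 8. The promoter table of RefSeq (GRCm38.p6) held 7 of them, without Cdkn1c. The bases just before the transcription start are printed here for the genes that the comparisons turn on: Cdkn1a and Cdkn1b, which went in opposite directions with GSK343, the neighbours Cdkn2a and Cdkn2b, and Cdkn2d. Each matched mm9 exactly at 1 place and is printed 5′ to 3′ on the strand of its gene, with searched motifs in capitals. The motifs were searched on both strands. CATGNNNNNNCATG stood for 1 form of a p53 element, GGGCGG for an Sp1 box and CCAAT for the box bound by NF-Y. TTTNNCGC stood for an E2F site, TTTGAA for the CHR element of cell cycle genes, GTAAACA for a FOXO site and TATAAA for the TBP box. The Sp1 and CCAAT motifs of a window do not overlap each other.
Cdkn1a, upstream start, chr17:29227804-29227923: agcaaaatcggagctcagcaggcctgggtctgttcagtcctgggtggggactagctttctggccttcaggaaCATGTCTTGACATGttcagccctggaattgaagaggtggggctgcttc
Cdkn1a, downstream start, chr17:29230594-29230713: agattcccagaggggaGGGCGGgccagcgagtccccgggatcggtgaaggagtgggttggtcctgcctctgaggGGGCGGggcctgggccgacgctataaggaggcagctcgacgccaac
Cdkn1b, chr6:134870299-134870418: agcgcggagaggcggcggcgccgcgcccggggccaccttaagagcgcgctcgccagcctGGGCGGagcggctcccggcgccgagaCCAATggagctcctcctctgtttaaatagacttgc
Cdkn2a, upstream start (Arf), chr4:88940558-88940643: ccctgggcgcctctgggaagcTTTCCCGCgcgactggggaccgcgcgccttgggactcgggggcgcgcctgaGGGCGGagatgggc
Cdkn2a, downstream start (p16), chr4:88928097-88928216: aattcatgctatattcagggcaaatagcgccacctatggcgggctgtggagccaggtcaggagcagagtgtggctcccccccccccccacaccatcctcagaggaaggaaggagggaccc
Cdkn2b, chr4:88956942-88957061: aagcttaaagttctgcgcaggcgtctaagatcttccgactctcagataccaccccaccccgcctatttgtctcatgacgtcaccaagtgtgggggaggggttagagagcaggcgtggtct
Cdkn2d, chr9:21095654-21095773: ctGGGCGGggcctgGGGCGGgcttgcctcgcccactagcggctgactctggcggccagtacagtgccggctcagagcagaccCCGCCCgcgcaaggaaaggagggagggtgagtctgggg

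Starts with few bases left before an mm9 exon of the gene, among them the first of Cdkn2c, were left out, and Cdkn1c had no entry. In the 250 bases before each start kept, the p53 letters were found at the upstream start of Cdkn1a and at no other. They were found in 0.49% of the 32851 mouse promoters searched. The Sp1 letters were found in 32.7% of all promoters, and stood 3 times before Cdkn2d, 2 times before the downstream start of Cdkn1a and 2 times before the upstream start of Cdkn2a. The E2F letters (4.28% of promoters) were found before both starts of Cdkn2a, in the printed window only at the upstream one. The CCAAT letters (33.8%) were found before Cdkn1b, Cdkn2d and Cdkn3, and the CHR letters (16%) before Cdkn2b and Cdkn3. The FOXO letters (3.17%) and the TBP letters (12.4%) were found before none of the starts kept. These bases held 40 CpG dinucleotides at the upstream and 7 at the downstream start of Cdkn2a, 2 at the upstream and 19 at the downstream start of Cdkn1a, 28 at Cdkn1b and 12 at Cdkn2b, against a median of 6 over all promoters. A match of letters is a description of the sequence and not a binding site, and a missing match does not show that no site is there. The libraries do not tell which start of Cdkn1a or Cdkn2a was used.

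Levels are given as RPKM, the deposited RPM (reads scaled to 1000000 a library) divided by the deposited gene length in kb, so that genes can be compared per length. Fold changes are differences of log2(RPKM + 0.25) with their standard errors (SE) from limma, with p-values adjusted by Benjamini-Hochberg over all 11299 genes tested and called under 0.05. A value written as n-fold is such a difference put back on the linear scale. It is therefore smaller than the ratio of the RPKM levels where the lower level is small. Of the 8 genes, 7 passed the filter of 1 RPKM in at least 3 libraries. Cdkn1c did not pass, and is described by its reads. The comparisons among nB, actB and Pb share the same DMSO libraries, so they are not independent of each other. Per library, the levels are shown in the plot of the 8 genes by group.

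**Figure D1:**
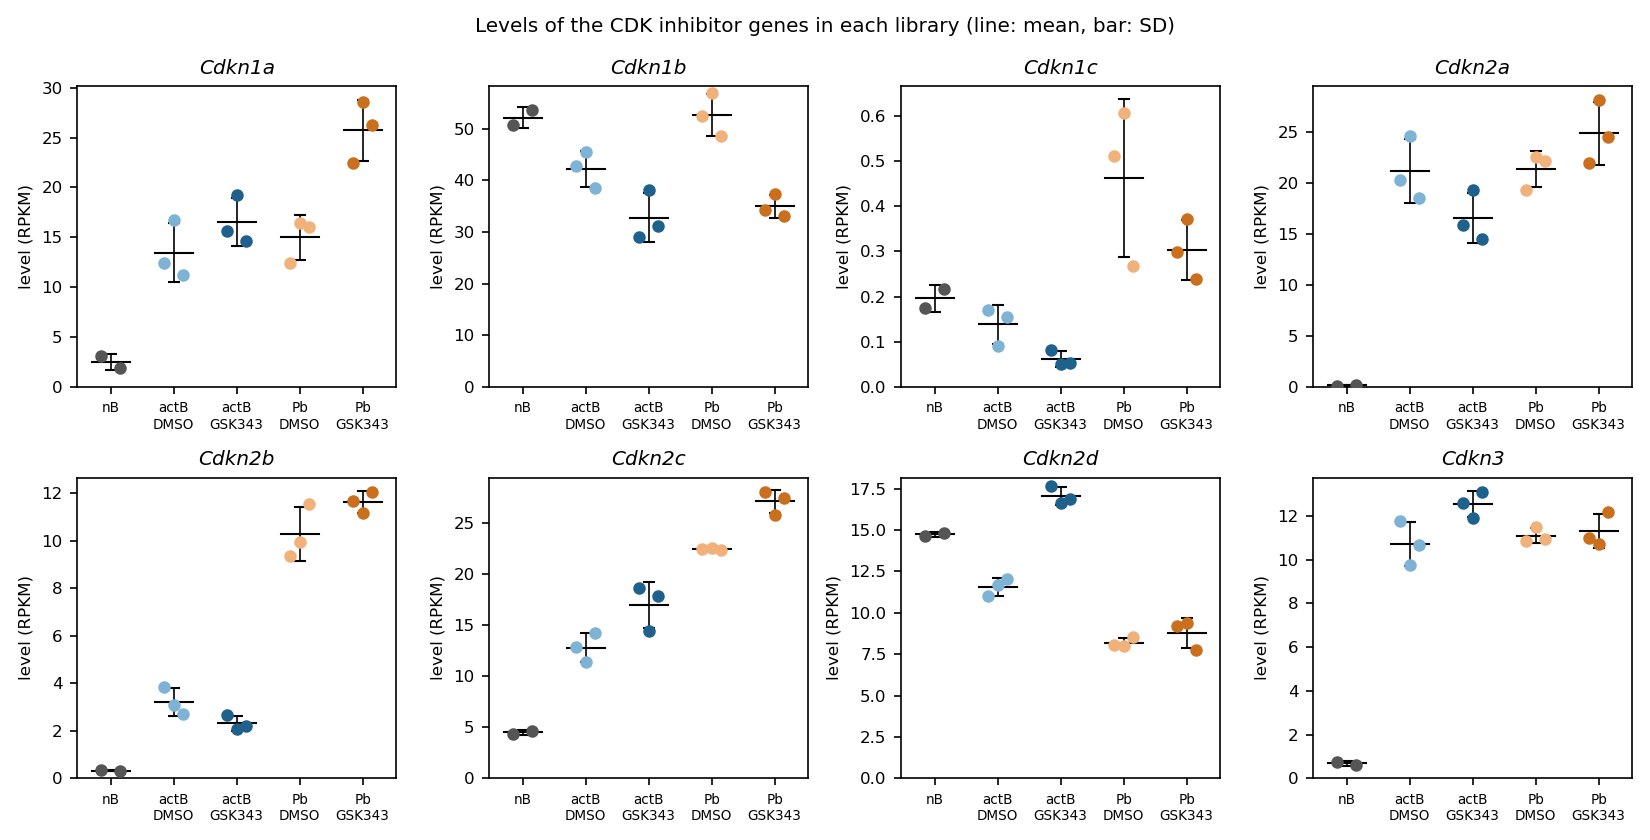
Level of each CDK inhibitor gene (RPKM, y axis from 0, a scale of its own in each panel) in every library of the 5 groups (x axis), with nB libraries 1 and 2 counted as 1; the horizontal line is the group mean and the bar its SD. Cdkn2a, Cdkn2b and Cdkn3 were below 1 RPKM in both nB libraries, and Cdkn1b was lower with GSK343 than with DMSO in both cultured cell types.

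From nB to actB with DMSO, 7 of the 7 tested inhibitor genes passed the test, 5 higher and 2 lower, in a comparison in which 77.2% of all genes tested passed it (40.9% higher and 36.3% lower). Cdkn2a, Cdkn3, Cdkn2b, Cdkn1a and Cdkn2c rose, while Cdkn1b and Cdkn2d fell. Their median log2 fold change was 2.34, against 0.053 over all genes. From actB to Pb with DMSO, 4 of 7 passed, with 3 higher (Cdkn2b, Cdkn2c and Cdkn1b) and 1 lower (Cdkn2d), where 69.7% of all genes did (27.3% higher and 42.4% lower). The median was 0.16 for the inhibitor genes and -0.12 for all genes. From nB to Pb with DMSO, 6 of 7 passed, 5 higher and 1 lower, where 80.6% of all genes did (39.5% higher and 41.1% lower).

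With GSK343, 4 of the 7 tested inhibitor genes changed in actB and 2 in Pb, each by less than 1 on the log2 scale. In actB, 4 of 7 passed the test, where 10.4% of all genes did: Cdkn2d and Cdkn2c rose (8.2% of genes passed upward) and Cdkn1b and Cdkn2b fell (2.16% passed downward). In Pb, 2 of 7 passed, where 12.9% of all genes did: Cdkn1a rose (7.9% upward) and Cdkn1b fell (5% downward). The median log2 fold change of the 7 genes was 0.22 in actB and 0.18 in Pb, against 0.028 and 0.0031 over all genes. The GSK343 libraries lay wholly above or below the DMSO libraries for 5 of 7 genes in actB (3 higher and 2 lower), as they did for 25.9% of all genes, and for 3 of 7 in Pb (2 higher and 1 lower), as for 34.1% of all genes. A fit that paired libraries by their replicate number, as a block, called 2248 genes rather than 1170 in actB and 2626 rather than 1458 in Pb, and the inhibitor genes called were 4 and 3, with Cdkn2c added in Pb.

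**Figure D2:**
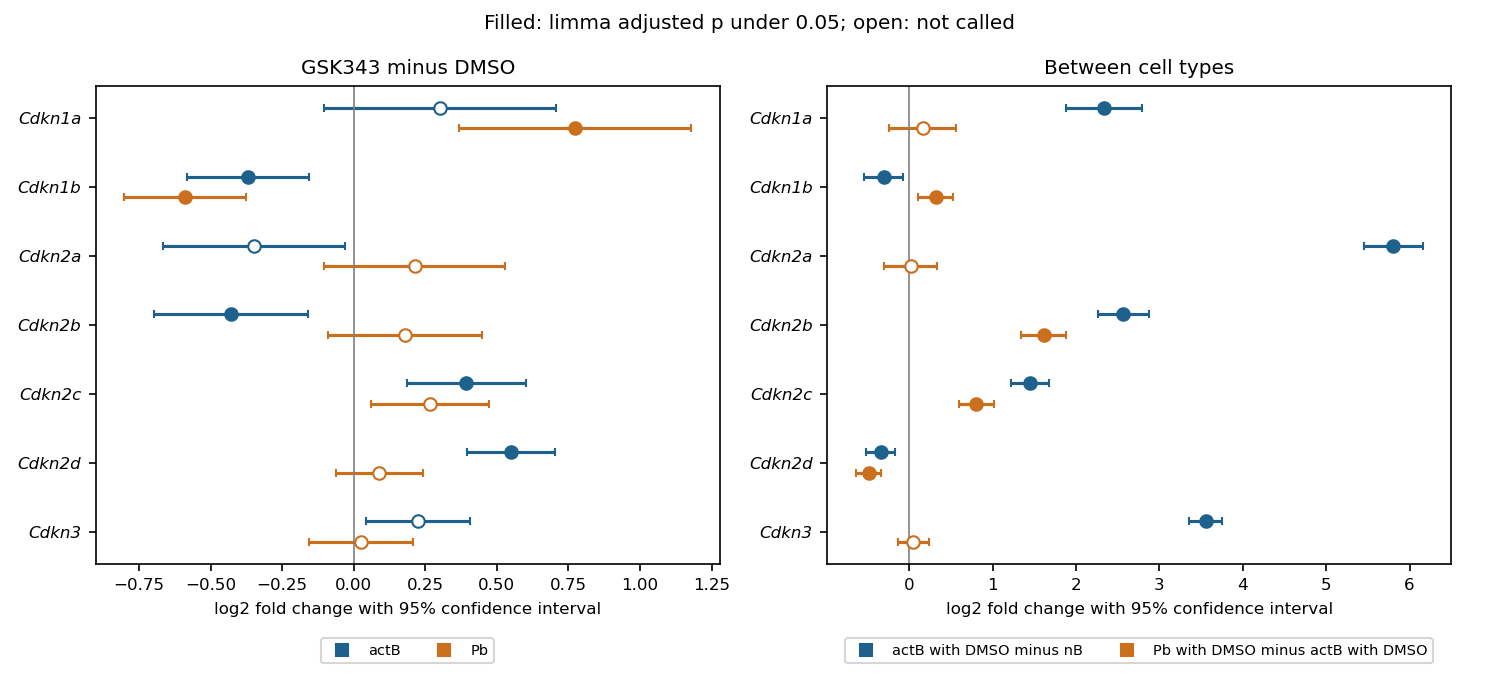
Log2 fold changes (x axis, change of log2(RPKM + 0.25)) with 95% confidence intervals of the 7 inhibitor genes that passed the filter, for GSK343 minus DMSO in actB and Pb (left) and for the steps between cell types with DMSO (right); filled points passed the limma test and open points did not. With GSK343, Cdkn1b passed downward in both cell types, and in the right panel Cdkn2a has the largest value, 5.80 from nB to actB.

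Cdkn1a encodes p21, the inhibitor that p53 induces after DNA damage. It was at 3.06 and 1.91 RPKM in nB, at 12.4, 16.8 and 11.2 in actB libraries 1, 2 and 3 with DMSO, and at 12.4, 16.5 and 16.1 in Pb libraries 1, 2 and 3 with DMSO. With GSK343 it was at 15.6, 19.3 and 14.7 RPKM in actB and at 22.4, 28.5 and 26.2 in Pb. All cultured libraries were above both nB libraries, and the 3 Pb libraries with GSK343 were above all others. The actB libraries with and without the drug overlapped with each other and with Pb with DMSO. Cdkn1a rose 5.06-fold from nB to actB (log2 fold change 2.34, SE 0.21, adjusted p = 4.34e-07), and differed little between actB and Pb with DMSO (log2 fold change 0.16, SE 0.19, adjusted p = 0.459). In Pb it rose 1.71-fold with GSK343, from 14.99 ± 2.2 to 25.7 ± 3.1 RPKM (SD, n = 3; log2 fold change 0.77, SE 0.19, adjusted p = 0.0182), and the same-numbered pairs differed by 0.84, 0.79 and 0.70 on the log2 scale. In actB it went from 13.5 ± 2.9 to 16.5 ± 2.4 RPKM (0.30, SE 0.19, adjusted p = 0.361), higher in 3 of 3 same-numbered pairs. The Pb call was lost without Pb DMSO library 1 (adjusted p = 0.0762), without Pb GSK343 library 2 (0.0565) or without Pb GSK343 library 3 (0.0647).

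Cdkn1b encodes p27, which is high in resting lymphocytes and is degraded as cells enter the cycle. It had the highest level of the 8 genes in every library. It was at 50.8 and 53.6 RPKM in nB, at 42.8, 45.4 and 38.5 in actB with DMSO, and at 52.6, 56.8 and 48.7 in Pb with DMSO. With GSK343 it was at 29.0, 38.2 and 31.2 RPKM in actB and at 34.2, 37.5 and 33.2 in Pb. The 6 libraries with GSK343 were thus below all other libraries, and the actB and Pb libraries with GSK343 overlapped. nB and Pb with DMSO overlapped as well (log2 fold change 0.012, SE 0.11, adjusted p = 0.924), and actB with DMSO lay between them and the GSK343 libraries. Cdkn1b fell by 0.59 on the log2 scale in Pb with GSK343, from 52.7 ± 4.1 to 35.0 ± 2.2 RPKM (SD, n = 3; 1.503-fold lower, SE 0.098, adjusted p = 0.00274), and by 0.37 in actB, from 42.2 ± 3.5 to 32.8 ± 4.8 RPKM (1.29-fold lower, SE 0.098, adjusted p = 0.0327). The difference between these 2 effects was -0.22 (SE 0.14, adjusted p = 0.762). The fall in Pb was called under every alternative tried (adjusted p at most 0.0169). The fall in actB was lost with no filter on low genes (adjusted p = 0.0558), with quantile normalization (0.0583), with the 2 actB groups fitted alone (0.152), and without actB DMSO library 1 or 2 (0.0977 and 0.0788) or actB GSK343 library 1 or 3 (0.117 and 0.114).

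The steps of Cdkn1b between cell types were small. It was lower in actB with DMSO than in nB (log2 fold change -0.31, SE 0.11, adjusted p = 0.0222) and higher in Pb than in actB with DMSO (0.32, SE 0.098, adjusted p = 0.0117). The first call was lost without nB library 1 (adjusted p = 0.0546), nB library 3 (0.122) or actB DMSO library 3 (0.0802), and the second without Pb DMSO library 2 (0.0516) or actB DMSO library 3 (0.0548). Cdkn1c, encoding p57, had between 4 and 40 reads a library and no library above 0.61 RPKM. Its reads in libraries 1, 2 and 3 were 13, 7 and 12 in actB with DMSO, 7, 4 and 4 in actB with GSK343, 32, 40 and 18 in Pb with DMSO and 22, 24 and 15 in Pb with GSK343, and they were 13 and 16 in nB. In RPKM the libraries fell in the order Pb, nB, actB, with Pb with and without the drug overlapping. The gaps were small: nB library 1 was at 0.175 RPKM and actB DMSO library 1 at 0.170, from 13 reads each. So few reads do not settle this order. A fit with no filter called Cdkn1c higher in Pb than in actB with DMSO (log2 fold change 0.85, SE 0.17, adjusted p = 0.00110) and gave -0.31 with GSK343 in actB (adjusted p = 0.384) and -0.34 in Pb (adjusted p = 0.301), lower in 3 of 3 same-numbered pairs in each.

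Cdkn2a, the Ink4a and Arf gene, showed the widest step of the family. It had 2 and 5 reads in the nB libraries (0.077 and 0.192 RPKM). It was at 20.3, 24.6 and 18.5 RPKM in actB with DMSO and at 19.3, 22.6 and 22.2 in Pb with DMSO, so every cultured library was far above nB. In RPM, actB with DMSO was 158 times nB (95% exact interval 76.3 to 392) and Pb with DMSO 160 times (77.2 to 397), and these intervals cover counting error only. The fitted log2 fold change from nB to actB was 5.80 (SE 0.16, adjusted p = 1.17e-11), but ran from 4.28 to 7.20 over the alternatives. Pb and actB with DMSO overlapped (log2 fold change 0.022, SE 0.15, adjusted p = 0.903). With GSK343 Cdkn2a was at 15.9, 19.3 and 14.5 RPKM in actB, lower in 3 of 3 same-numbered pairs (-0.35, SE 0.15, adjusted p = 0.157), and at 21.9, 28.1 and 24.5 in Pb, higher in 3 of 3 pairs (0.21, SE 0.15, adjusted p = 0.398). Neither passed the limma test. In actB edgeR on the recovered reads with the replicate block, an alternative added after seeing the data, called it lower (adjusted p = 0.00451, where the alternatives ran up to 0.418). The counts take the Ink4a and Arf transcripts together.

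Cdkn2b, the neighbour of Cdkn2a, encodes p15, an INK4 inhibitor known as a target of TGF-beta signaling. It was at 0.34 and 0.31 RPKM in nB, at 3.85, 3.10 and 2.69 in actB with DMSO and at 9.38, 9.94 and 11.6 in Pb with DMSO. The 3 groups did not overlap. Cdkn2b rose 5.94-fold from nB to actB (log2 fold change 2.57, SE 0.14, adjusted p = 3.68e-09) and a further 3.06-fold from actB to Pb (1.61, SE 0.12, adjusted p = 1.54e-07). With so low a level in nB, the first of these log2 fold changes ran from 1.66 with a pseudocount of 1 to 3.23 with edgeR. With GSK343 it was at 2.67, 2.07 and 2.20 RPKM in actB and at 11.7, 11.2 and 12.1 in Pb. In actB all 3 GSK343 libraries were below all DMSO libraries, and Cdkn2b fell by 0.43 on the log2 scale (SE 0.12, adjusted p = 0.0469). In Pb the groups overlapped (0.18, SE 0.12, adjusted p = 0.404). The ratio of Cdkn2a to Cdkn2b was 6.69 ± 1.35 in actB and 2.08 ± 0.18 in Pb with DMSO (SD, n = 3), and 7.28 ± 1.80 and 2.14 ± 0.33 with GSK343. The fall of Cdkn2b in actB was lost with a pseudocount of 1 (adjusted p = 0.0530), with no filter (0.0825), with the actB groups alone (0.190), without the number 2 libraries of all cultured groups (0.151), and without actB DMSO library 1 (0.171) or 2 (0.0644) or actB GSK343 library 2 (0.118) or 3 (0.142).

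Cdkn2c encodes p18. It rose at each step of differentiation, from 4.35 and 4.68 RPKM in nB to 12.8, 11.4 and 14.2 in actB with DMSO and 22.5, 22.6 and 22.4 in Pb with DMSO. It was the only tested inhibitor gene for which no 2 of the 5 groups overlapped. The rise was 2.73-fold from nB to actB (log2 fold change 1.45, SE 0.11, adjusted p = 6.68e-08) and 1.75-fold from actB to Pb (0.81, SE 0.095, adjusted p = 7.85e-06). With GSK343 Cdkn2c was at 18.6, 14.4 and 17.8 RPKM in actB and at 28.1, 25.8 and 27.5 in Pb, higher than with DMSO in 3 of 3 same-numbered pairs in each cell type. The increase passed the test in actB (0.39, SE 0.095, adjusted p = 0.0212). In Pb it had an adjusted p of 0.0883 (0.27, SE 0.095) and passed in 4 of 12 alternatives: the replicate block (adjusted p = 0.0175), edgeR with the block (0.0180), the compared groups alone (0.0180) and without the number 2 libraries of all cultured groups (0.0124). The actB call was lost with the actB groups alone (adjusted p = 0.154), and without actB DMSO library 1 (0.0610) or 2 (0.0538) or actB GSK343 library 1 (0.0820) or 3 (0.0852).

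Cdkn2d, which encodes the INK4 protein p19, went the other way across the cell types. It was at 14.6 and 14.9 RPKM in nB, at 10.99, 11.7 and 12.1 in actB with DMSO and at 8.07, 7.99 and 8.54 in Pb with DMSO. It fell by 0.34 on the log2 scale from nB to actB (SE 0.079, adjusted p = 0.00158) and by 0.49 from actB to Pb (SE 0.070, adjusted p = 5.00e-05). With GSK343 it was at 17.7, 16.6 and 16.9 RPKM in actB, above every library of every other group. It was at 9.23, 9.36 and 7.73 in Pb, overlapping Pb with DMSO. The rise in actB was 1.46-fold, from 11.6 ± 0.5 to 17.1 ± 0.5 RPKM (SD, n = 3; log2 fold change 0.55, SE 0.070, adjusted p = 0.000736), and was called under every alternative tried (adjusted p at most 0.0155). In Pb the change was 0.090 (SE 0.070, adjusted p = 0.470). The difference between the Pb and actB effects, -0.46 (SE 0.10), was the member difference with the smallest p, and did not pass over all genes (adjusted p = 0.109).

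Cdkn3, the CDK phosphatase gene, was at 0.76 and 0.61 RPKM in nB, at 11.8, 9.74 and 10.7 in actB with DMSO and at 10.9, 11.5 and 10.96 in Pb with DMSO. It rose 11.7-fold from nB to actB (log2 fold change 3.55, SE 0.094, adjusted p = 7.13e-12), a log2 value that ran from 2.80 with a pseudocount of 1 to 3.92 with edgeR, and actB and Pb with DMSO overlapped (0.053, SE 0.084, adjusted p = 0.594). With GSK343 it was at 12.6, 11.9 and 13.1 RPKM in actB (0.22, SE 0.084, adjusted p = 0.113) and at 11.01, 10.7 and 12.2 in Pb (0.025, SE 0.084, adjusted p = 0.896). The actB libraries with GSK343 were all above those with DMSO, without passing the test. The 10 proliferation markers summed to 218 to 220 RPKM in nB, 1078 to 1299 in actB and 1126 to 1239 in Pb with DMSO, and to 1138 to 1446 and 1161 to 1288 with GSK343, and 0 of 10 passed the test with GSK343 in either cell type, with 0 in actB and 1 in Pb at an unadjusted p under 0.05 and 0 by edgeR in each. The replicate block called 1 of the 10 in actB, Pcna higher, and 2 in Pb, Pcna higher and Bub1 lower.

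No inhibitor gene differed between the GSK343 effects in Pb and in actB by the limma test over all genes, in which 28 genes or 0.248% did. At an unadjusted p under 0.05 there were 3 inhibitor genes (Cdkn2a, Cdkn2b and Cdkn2d) and 1017 genes. The difference was 0.56 for Cdkn2a (SE 0.21, adjusted p = 0.409) and 0.61 for Cdkn2b (SE 0.18, adjusted p = 0.213), both lower with GSK343 in 3 of 3 actB pairs and higher in 3 of 3 Pb pairs. For Cdkn1a it was 0.47, with a 95% interval of -0.10 to 1.05. edgeR on the recovered reads called 0 of 7, and with the replicate block 2 of 7, Cdkn2a (adjusted p = 0.0188) and Cdkn2d (0.0408). The replicate block in limma called 0 of 7 and 139 genes.

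The makeup of the family changed with these levels. Of the summed RPKM of the 7 Cip/Kip and INK4 genes, Cdkn1b made up 70.0% ± 1.1 in nB (SD, n = 2), 40.4% ± 0.9 in actB and 40.4% ± 2.5 in Pb with DMSO, and 32.0% ± 2.8 in actB and 26.2% ± 0.8 in Pb with GSK343 (SD, n = 3 each). Cdkn1a made up 11.5% ± 1.3 of the sum in Pb with DMSO and 19.2% ± 1.5 with GSK343. The ratio of Cdkn1b to Cdkn1a was 16.6 and 28.1 in the nB libraries, 3.20 ± 0.42 in actB and 3.57 ± 0.61 in Pb with DMSO, and 1.99 ± 0.14 and 1.37 ± 0.14 with GSK343. The ranges of this ratio with and without the drug did not overlap in either cell type. The sum of the 4 INK4 genes went from 19.4 and 20.0 RPKM in nB to 48.7 ± 1.8 in actB and 62.3 ± 2.8 in Pb with DMSO, and to 52.9 ± 1.8 and 72.4 ± 1.8 with GSK343. This INK4 sum takes the Ink4a and Arf transcripts of Cdkn2a together, on average 21.12 RPKM in actB and 21.35 in Pb with DMSO. The sum of all 7 was 105 ± 8 RPKM in actB with DMSO and 102 ± 7 with GSK343, and 130 ± 6 and 133 ± 7 in Pb. Within the INK4 genes, the ratio of Cdkn2c to Cdkn2d was 0.30 and 0.32 in nB, 1.11 ± 0.12 in actB and 2.75 ± 0.11 in Pb with DMSO. With GSK343 it was 0.99 ± 0.11 in actB and 3.12 ± 0.40 in Pb. These shares and ratios are descriptions, with no test.

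**Figure D3:**
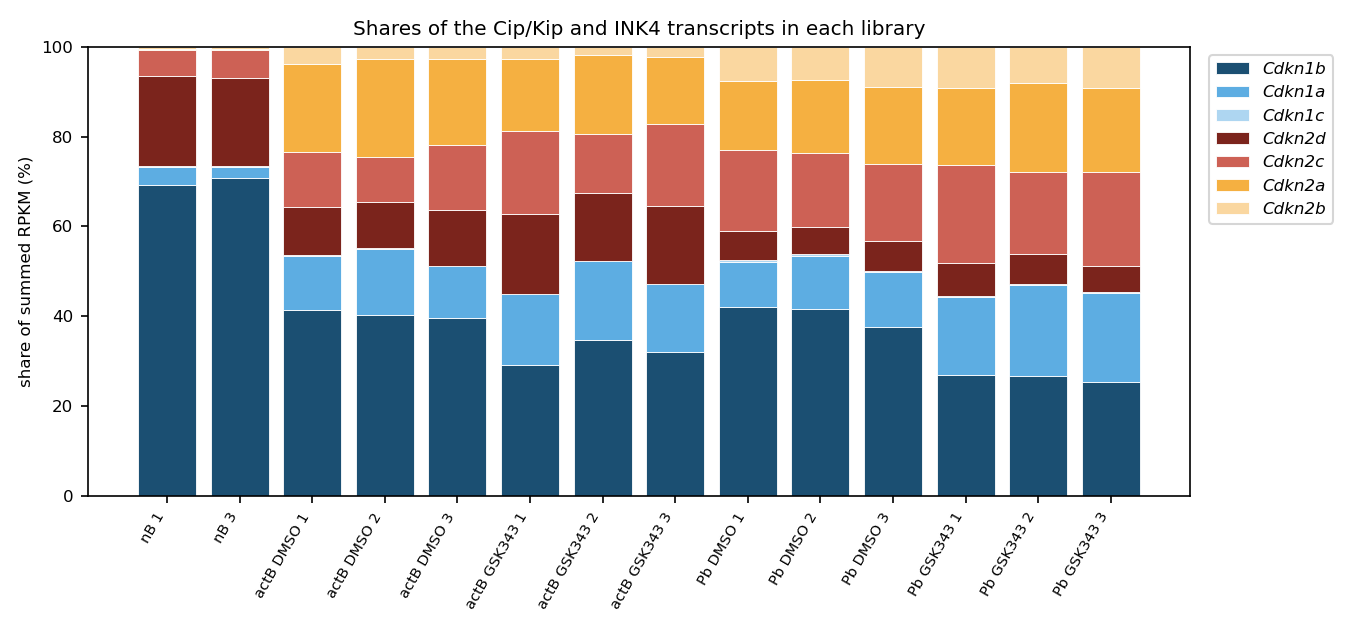
Share of each gene (%, y axis) in the summed RPKM of the 7 Cip/Kip and INK4 genes in each of the 14 libraries (x axis), Cip/Kip genes in blue, Cdkn2c and Cdkn2d in red and Cdkn2a and Cdkn2b in yellow. Cdkn1b made up most of the sum in nB and 25.2% to 42.1% of it in the cultured libraries, least in Pb with GSK343.

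The partners of the inhibitors were counted from lists of the CDK pathway. From nB to actB with DMSO, all 5 genes of CDK4, CDK6 and the D cyclins passed the test, 4 higher and 1 lower. Of all genes tested, 77.2% passed it, 40.9% higher and 36.3% lower. Ccnd2 rose most (log2 fold change 3.12, adjusted p = 6.72e-13) and Ccnd1 fell (-4.76, adjusted p = 1.26e-11). All 7 tested genes of CDK1, CDK2 and the E, A and B cyclins were higher. The summed RPKM of the D cyclins was 1.99 and 1.998 times that of the INK4 genes in the nB libraries and 3.64 to 4.37 times in every cultured library. Arf transcripts, counted under Cdkn2a, are part of that INK4 sum. From actB to Pb with DMSO, Ccnd2 rose (0.47, adjusted p = 1.91e-06) and Ccnd3 fell (-0.92, adjusted p = 8.28e-07). With GSK343, Ccnd2 (0.22, adjusted p = 0.0118) and Ccnd3 (0.30, adjusted p = 0.0459) rose in actB, and 0 of the 5 genes passed in Pb, as by edgeR and at an unadjusted p under 0.05. The call of Ccnd3 was lost in 6 of 12 alternatives and in 5 of 6 cases with 1 library left out, with an adjusted p of up to 0.159, and that of Ccnd2 with the actB groups alone (0.0571) and without actB DMSO library 1 (0.0511). None of the 7 CDK1 and CDK2 cyclin genes, the 8 genes of the CDK-activating kinase, the Cdc25 phosphatases and the Wee1 kinases, or the 10 genes of inhibitor turnover, which include Skp2 of the ligase that degrades p27, passed the test with GSK343 in actB or Pb. Of all genes tested, 10.4% passed with GSK343 in actB and 12.9% in Pb. At an unadjusted p under 0.05 these 3 lists held 0, 1 and 2 genes in actB and 0 each in Pb. edgeR called Ccnh, the cyclin of the CDK-activating kinase, and Cul4b lower in actB and none in Pb. With the replicate block, Ccnh and Cul4b were lower and Cul1 higher in actB, and none was called in Pb.

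A list of 18 genes held p53, which induces Cdkn1a, and 17 genes around it, mostly its targets. Of these 18 genes, 16 were tested. With GSK343 in Pb, 6 of 16 rose and 0 fell, where 7.9% and 5% of all genes did, and their median log2 fold change was 0.23 against 0.0031 over all genes. Plk2, encoding a kinase induced by p53, rose from 1.59 ± 0.33 to 3.20 ± 0.15 RPKM (SD, n = 3; 0.92, SE 0.20, adjusted p = 0.0116), and Phlda3, encoding a p53-induced repressor of Akt, from 3.58 ± 0.28 to 5.69 ± 0.58 (0.63, SE 0.14, adjusted p = 0.0144). The other 4, named after their values were seen, were Zmat3 (0.52, adjusted p = 0.0116), Btg2 (0.33, adjusted p = 0.0427), Pmaip1 (0.24, adjusted p = 0.0481) and Mdm2 (0.21, adjusted p = 0.0154). The level of Trp53 itself was 40.7 ± 1.4 RPKM without and 38.7 ± 0.5 with the drug. In actB, 0 of 16 rose and 1 fell, Ccng1, a cyclin gene induced by p53 (-0.25, SE 0.057, adjusted p = 0.0169), with a list median of -0.092. The replicate block called 9 of 16 higher and 0 lower in Pb, where it called 1475 of 11299 genes higher and 1151 lower. In actB it called 1 higher (Btg2) and 3 lower (Bbc3, Ccng1 and Trp53), where it called 1588 genes higher and 660 lower. Without the number 2 libraries of all cultured groups, 7 of 16 were higher in Pb, and 1 was higher and 2 lower in actB. The share over all genes is not given here for that setting. edgeR called 5 higher in Pb, without Pmaip1, where it called 866 of 11146 genes higher. In actB it called 2 lower, Ccng1 and Trp53, where it called 425 genes lower. The difference between the Pb and actB effects was called for 0 of the 16 by limma and by edgeR, with 5 at an unadjusted p under 0.05, and for Ccng1 and Phlda3 with the replicate block. Calls in Pb were lost with 1 library left out, in fits that called 690 to 1304 genes rather than 1458. Without Pb DMSO library 1, Plk2 (adjusted p = 0.0513), Zmat3 (0.0515), Phlda3 (0.0594) and Mdm2 (0.0668) were lost. Phlda3 (0.0575) and Mdm2 (0.0569) were also lost without Pb GSK343 library 3, and Mdm2 without Pb GSK343 library 1 (0.0610) or Pb DMSO library 2 (0.0526). Btg2 was lost in 6 of 6 such cases (0.0509 to 0.143) and Pmaip1 in 4 of 6 (up to 0.185). In actB Ccng1 was lost without actB DMSO library 1 (0.0538) or actB GSK343 library 1 (0.0627) or 3 (0.0590).

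Another list held 13 regulators of Cdkn transcription other than p53. Among them Bmi1, a Polycomb gene known to repress Cdkn2a, had a mean of 18.1 ± 0.9 RPKM in actB without GSK343. It rose to 28.7 ± 2.8 with the drug (log2 fold change 0.65, SE 0.080, adjusted p = 0.000579). In Pb it rose from 14.9 ± 1.5 to 21.5 ± 0.9 (0.52, SE 0.080, adjusted p = 0.00170), and both rises were called under every alternative tried. In the same libraries Cdkn2a did not pass the test, and was lower in 3 of 3 actB pairs and higher in 3 of 3 Pb pairs. A link between Bmi1 and Cdkn2a was not tested. Smad3, a transducer of TGF-beta signals, rose in actB (0.36, SE 0.077, adjusted p = 0.0122), a call lost without actB DMSO library 1 (0.0536) or 3 (0.0554) and with the actB groups alone (0.0997). Ezh2, whose protein GSK343 inhibits, did not pass (101 ± 6 against 120 ± 12 RPKM in actB, adjusted p = 0.0705, and 77.6 ± 5.6 against 82.6 ± 4.3 in Pb, adjusted p = 0.532), but in actB it was called higher in 4 of 12 alternatives, among them the replicate block (adjusted p = 0.00304), and without actB GSK343 library 2 (1 of 6 cases with 1 library left out), and otherwise had an adjusted p of up to 0.224. The block also called Foxo1, Smad2 and Zbtb17 higher in actB, and Foxo1 and Zbtb17 in Pb. Since the drug blocks the enzyme and not its gene, this level is no check of the treatment. Between cell types, Foxo1, a factor known to induce Cdkn1b, fell from nB to actB (-1.62, SE 0.076, adjusted p = 9.98e-10). Smad3 fell from nB to actB (-0.36, SE 0.086, adjusted p = 0.00211) and rose from actB to Pb (1.38, SE 0.077, adjusted p = 8.77e-09), while Cdkn2b rose at both steps.

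**Figure D4:**
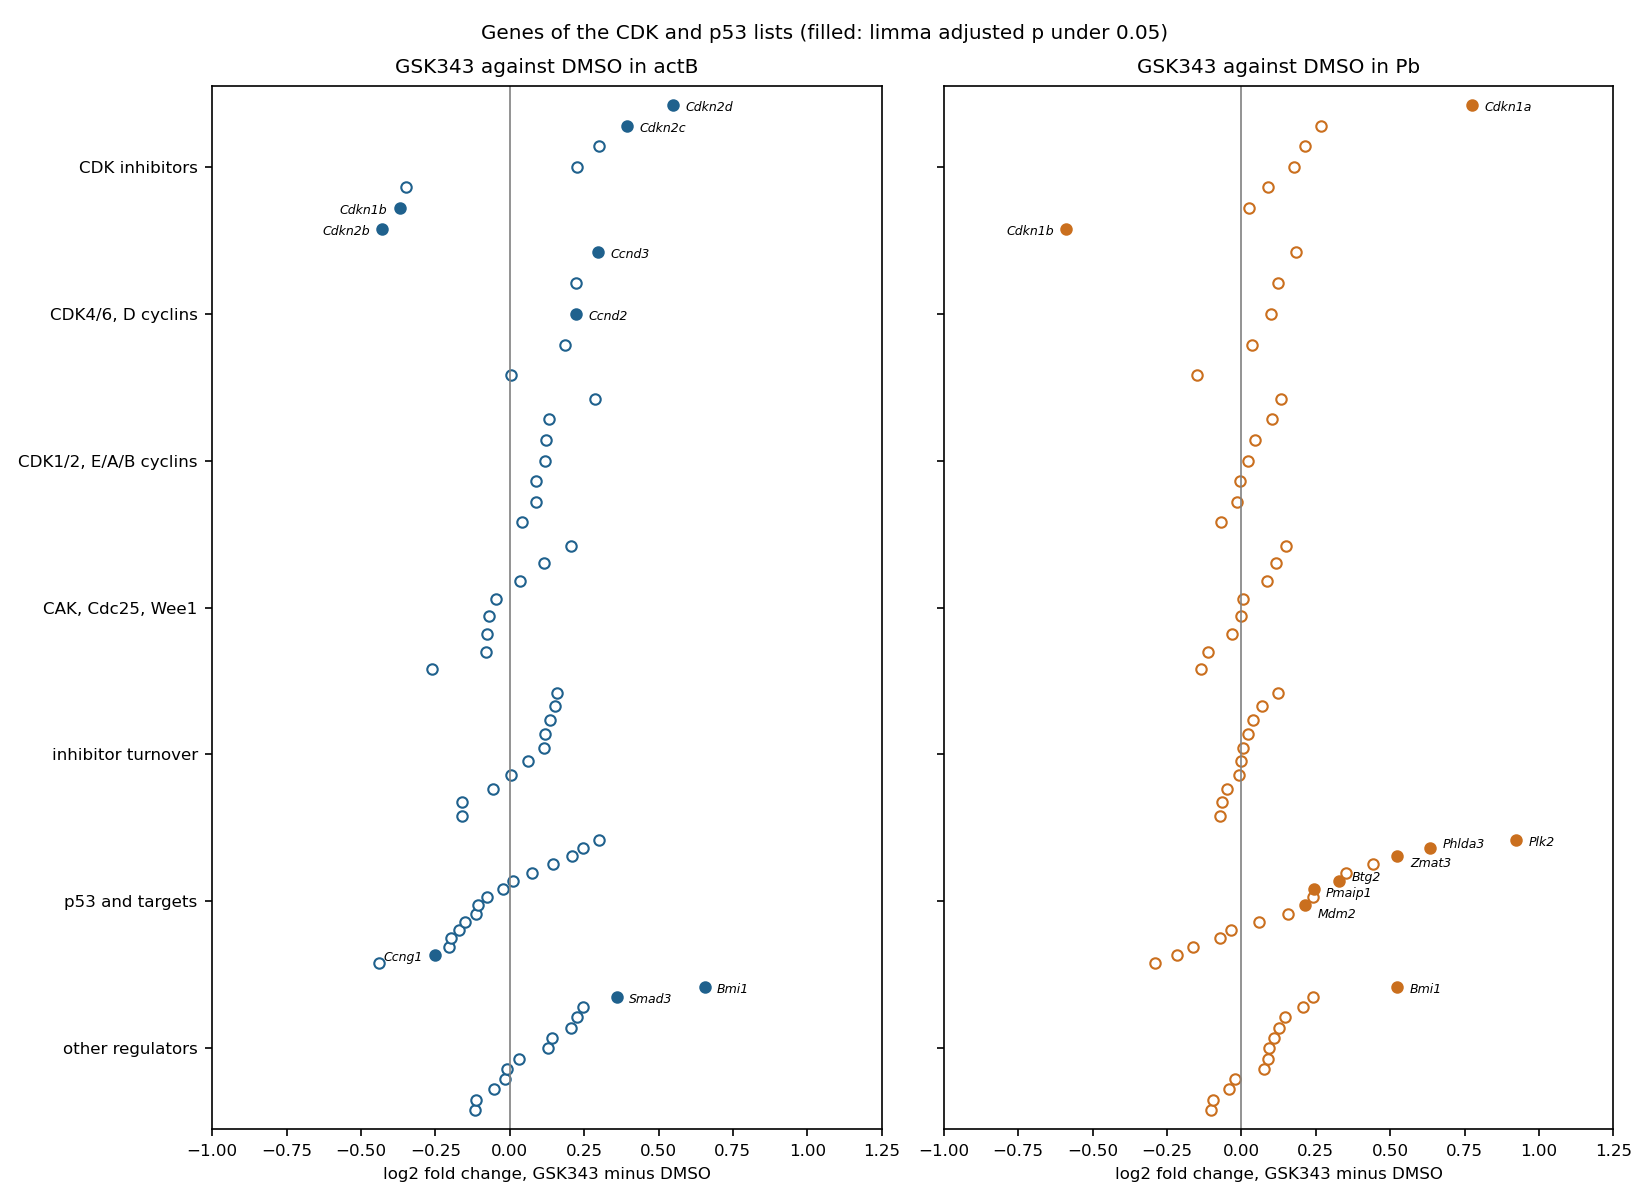
Log2 fold changes with GSK343 (x axis, GSK343 minus DMSO) of the tested genes of the inhibitor family and of 6 lists around it (y axis, 1 point a gene) in actB (left) and Pb (right); filled, named points passed the limma test. Bmi1 and Cdkn1b are filled in both panels. Of 16 genes of the p53 list, 6 are filled to the right of 0 in Pb and 0 in actB. Of all genes tested, 7.9% were called higher in Pb and 8.2% in actB. The difference between the Pb and actB effects was called for 0 of the 16.

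Markers of cell state moved with the drug beside these results. In Pb with GSK343 the 6 B cell markers summed to 126 to 173 RPKM, against 201 to 230 with DMSO. Of the 6, 3 were lower, where 5% of all genes were. With the replicate block 5 were lower, where 1151 of 11299 genes were. The 5 plasma cell markers summed to 3129 to 3396 RPKM against 3065 to 3215, with Sdc1 higher (log2 fold change 0.89, SE 0.11, adjusted p = 0.000575) and Irf4 lower (-0.25, SE 0.063, adjusted p = 0.0225). The Irf4 call was lost without Pb GSK343 library 1 (adjusted p = 0.0903) or 3 (0.0674), without Pb DMSO library 2 (0.0798) or 3 (0.0566), and without the number 2 libraries of all cultured groups (0.0517). In actB the plasma cell markers summed to 549 to 669 RPKM with GSK343 against 485 to 522 with DMSO. Of these 5, Jchain and Sdc1 were higher, where 8.2% of all genes were. Each was lost in 4 of 6 cases with 1 library left out. The replicate block called 4 of 5 higher, and 1588 of 11299 genes. Sdc1 was low in actB (0.67 RPKM with DMSO, 0.97 with GSK343). The myeloid markers summed to 8.31 to 14.1 RPKM against 4.14 to 5.44, with Itgam (4.27 to 9.95 RPKM) and Adgre1 (0.15 to 0.44) higher. In both actB groups 7 of the 8 myeloid markers had a mean under 1 RPKM. Adgre1 was lost without actB DMSO library 1 (adjusted p = 0.0597) or actB GSK343 library 1 (0.0593). S100a8 and S100a9, also on the myeloid list, were at 0 in every cultured library. The part of these shifts in the changes of the inhibitor genes was not tested.

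The genes whose levels ran most like each inhibitor gene were found by Pearson's r of log2(RPKM + 0.25) over the 14 libraries. These points share the gap between nB and the cultured cells, so high values are common, and they are a description only. For Cdkn1a the nearest genes were Fam212b (r = 0.982), Acoxl (0.976) and Atp10a (0.975). For Cdkn1b they were Zfp292 (0.930), Smagp (0.906) and 1810013L24Rik (0.903). Cdkn2a ran most like Notch1 (0.994), Fads1 (0.993) and Clic4 (0.992), and Cdkn2b like Ufsp2 (0.992), Morf4l2 (0.992) and Stx18 (0.992). Cdkn2c ran most like Kbtbd6 (0.997), Oxct1 (0.994) and Nxn (0.992), and Cdkn2d like S100a6 (0.966), Tbcc (0.962) and Elmo2 (0.959). Cdkn3 ran most like Prr11, BC030867 and Ckap2l (0.998 each).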

How the data were processed

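RNA-seq of poly(A) RNA was made from the 15 libraries with a stranded kit and, in the study's methods, mapped to mm9 with TopHat2 and counted over exons of UCSC Known Gene models per Entrez gene. Whether counting used the strand, and the treatment of shared reads, are not given in the sources used here. The deposited values are RPM, reads scaled by the authors to 1000000 a library, with the deposited gene length beside them (other unit, bases); although their file is named for RPKM, each library's values sum to that total. RPKM was computed from both. Of the values, 100% came out as whole reads, within 0.0006 RPM, and the reads of the merged nB library are the mean of both. The 92 genes without a symbol (0.0531% to 0.0905% of reads) were left out. A count of 3 reads is 0.114 to 0.154 RPM.

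limma 3.58.1 (R 4.3.3) was fitted to log2(RPKM + 0.25) of 11299 genes with at least 1 RPKM in at least 3 of 15 columns, over 14 libraries with 9 residual degrees of freedom, with trended eBayes, two-sided. Each library was set on its total reads. edgeR 4.0.16 quasi-likelihood with TMM on 11146 genes was the alternative on whole reads. Replicate numbers were taken from the labels. Same-numbered libraries deviated together from their group means (r of 0.158 to 0.502 for number 1, 0.435 to 0.713 for 2 and 0.219 to 0.356 for 3), so the numbers were taken to pair the libraries. The values in the text come from the fit without a term for this pairing, and a block for the number was an alternative. The fits were tested on simulated data. The 8 genes and all gene lists were chosen with earlier results of these data known. Named from a list were the 2 largest rises and 2 largest falls among called genes, and for each tested inhibitor gene the 3 genes with the highest r. Promoter sequences are RefSeq's, matched to the mm9 genome, with motifs counted in 250 bases before the start.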

Additional observations from a re-analysis of the deposited data

How the results depend on the processing

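The main GSK343 effects were 1170 genes in actB (926 higher, 244 lower), 1458 in Pb and 28 with a difference between them. Pairing by the replicate block gave 2248, 2626 and 139, edgeR 1241, 1500 and 31, and edgeR with the block 2717, 2814 and 233. In actB quantile normalization gave 606 higher and 378 lower (61.6% higher, against 79.1%), median scaling 690 and 370 (65.1%), and edgeR 816 and 425 (65.8%). With the actB groups alone 386 genes and 1 inhibitor gene passed, and with no filter 2 inhibitor genes. The difference between the effects had 18 genes with quantile normalization, 4 with the compared groups alone, 48 with all 15 columns as deposited and 146 without the number 2 libraries of all cultured groups; edgeR with the block called 2 inhibitor genes. Leaving out 1 library gave 608 to 1363 genes and 1 to 4 inhibitor genes in actB, 690 to 1304 genes and 1 to 2 inhibitor genes in Pb, and 0 to 58 genes and 0 inhibitor genes for the difference.

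Inhibitor genes that were not called turned in sign in 4 comparisons. Cdkn1b from nB to Pb gave -0.078 with quantile normalization, -0.0061 with the replicate block and -0.044 without the number 2 libraries, and ran from -0.044 to 0.067 with 1 library left out. Cdkn3 from actB to Pb gave -0.036 without the number 2 libraries and -0.013 to 0.12 with 1 library left out. With 1 library left out, Cdkn2a from actB to Pb ran from -0.067 to 0.14 and Cdkn3 with GSK343 in Pb from -0.030 to 0.062. The cause was not tested. Of 504 comparisons of single inhibitor genes under other settings, 485 kept direction and call, and of 280 with 1 library left out, 252 did. In limma the block changed no call of an inhibitor gene with GSK343 beyond Cdkn2c in Pb; in edgeR it also added Cdkn2a in actB, and Cdkn2a and Cdkn2d for the difference. The 2 to 3 libraries a group and, for Cdkn1c and for Cdkn2a in nB, few reads limit the precision.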
